A study of Capra hircus with 7 samples.

Results

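The genes described are 9 of the 17374 genes in a table of RNA levels from goat (Capra hircus) mammary gland cells: F13A1, F3, TFPI, TFPI2, PLAU, PLAT, PLAUR, THBD and PROCR, which act in blood coagulation, its inhibition and the activation of plasminogen. They are a named set, built around F13A1, one of the genes with the largest rise in the knockdown of the circular RNA cirRNA28250, and were picked with the values of all 7 libraries known. Their levels and fold changes are therefore given as a description, with no p printed. Which of them passed the threshold of the fit over all genes is stated beside the share of all genes, and nothing is read from it. All 9 were in the table, and all passed the filter on low values (at least 1 FPKM in at least 2 libraries). Of these, 8 reached 1 FPKM in all 7 libraries and F13A1 in 4, among them c3NC replicate 1 and cRNA28250 replicate 1, so that it would have passed without the knockdown libraries.

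The cells came from the mammary gland of Lanshan dairy goats and were grown in 3D culture, and virus was used to raise or lower cirRNA28250. The knockdown group, cKDmix, had 2 libraries, as did c3NC, which was taken as its control. The overexpression group, cRNA28250, also had 2 libraries, and c5NC, taken as the control of the overexpression, had 1. The labels do not say what c3NC and c5NC received, which construct was used, or whether the libraries of a group stem from different cultures or animals; the spread between them, and so every p-value, may be technical. FPKM is by definition scaled to transcript length and to the mapped fragments of the library, so levels of different genes can be compared roughly. The gene models behind the lengths, and any further scaling, were not given.

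Coagulation starts when tissue factor, encoded by F3, binds factor VII at a cell surface, and it ends with fibrin that factor XIII, whose catalytic A subunit is F13A1, cross-links. TFPI blocks the tissue factor complex, and thrombomodulin (THBD) with the endothelial protein C receptor (PROCR) turns thrombin towards activation of the anticoagulant protein C. Fibrin and matrix are cleared by plasmin, which urokinase (PLAU, held at the cell surface by its receptor PLAUR) and tissue plasminogen activator (PLAT) release from plasminogen. Many of these genes are also used by connective tissue cells outside the vessel, where they act in matrix turnover and migration.

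Between 10896 and 11870 genes reached 1 FPKM in a library, and sequencing depth is unknown because no counts are given. The 8 fibroblast markers all passed the filter, with a summed level of 13010 to 22366 FPKM per library. Of 8 luminal epithelial markers 6 were in the table and 1 passed, ESR1 (17.56 to 22.81 FPKM), which is not restricted to epithelium. EPCAM stayed at or below 0.02, KRT8 at or below 0.28, KRT18 at or below 0.18 and ELF5 at or below 0.75 FPKM in every library, while KRT19 was at 5.53 FPKM in c5NC and at most 0.83 FPKM elsewhere. All 4 basal epithelial markers were in the table and 1 passed, ACTA2 (63.51 FPKM in c5NC and 383.93 to 833.72 FPKM elsewhere), which smooth muscle and myofibroblasts also express. KRT14 was at 4.22 FPKM in c5NC and at most 0.78 FPKM elsewhere, KRT5 at most 0.53 and TP63 at most 0.05 FPKM. Replicates of cRNA28250 lay further apart (SD of their log2 difference 0.585) than those of c3NC (0.30) or cKDmix (0.306). All groups shared an estimate of spread for each gene, so SEs and calls of the knockdown carry the spread of cRNA28250 too.

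F13A1 was almost confined to the knockdown among these 7 libraries. It stood at 35.31 and 40.20 FPKM in cKDmix, at 1.12 and 0.69 FPKM in c3NC, at 1.0 and 0.46 FPKM in cRNA28250 and at 0.04 FPKM in c5NC. Both knockdown libraries were far above all 5 others, whose values were at or near 1 FPKM or below; c3NC and cRNA28250 overlapped, and c5NC was lowest. The mean in cKDmix, 37.8 ± 3.46 FPKM (SD, n = 2), was 41.7 times that in c3NC, 0.905 ± 0.304 FPKM (SD, n = 2). On the log2(FPKM + 1) scale, which understates changes of low genes, the difference was 4.35 ± 0.24 (SE from limma). It placed F13A1 at rank 7 of 12180 genes by size of rise, the value for which the gene was chosen. F13A1 moved from rank 10727 and 11452 of all genes by level in c3NC to rank 2017 and 1635 in cKDmix. Against c5NC in place of c3NC the log2 difference was 5.22, and over all alternatives that kept c3NC as the control it ran from 4.09 to 5.27. In the overexpression F13A1 differed from c5NC by 0.72 ± 0.29 on the log2 scale and from c3NC by −0.15, so its direction there depended on the control.

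**Figure D1:**
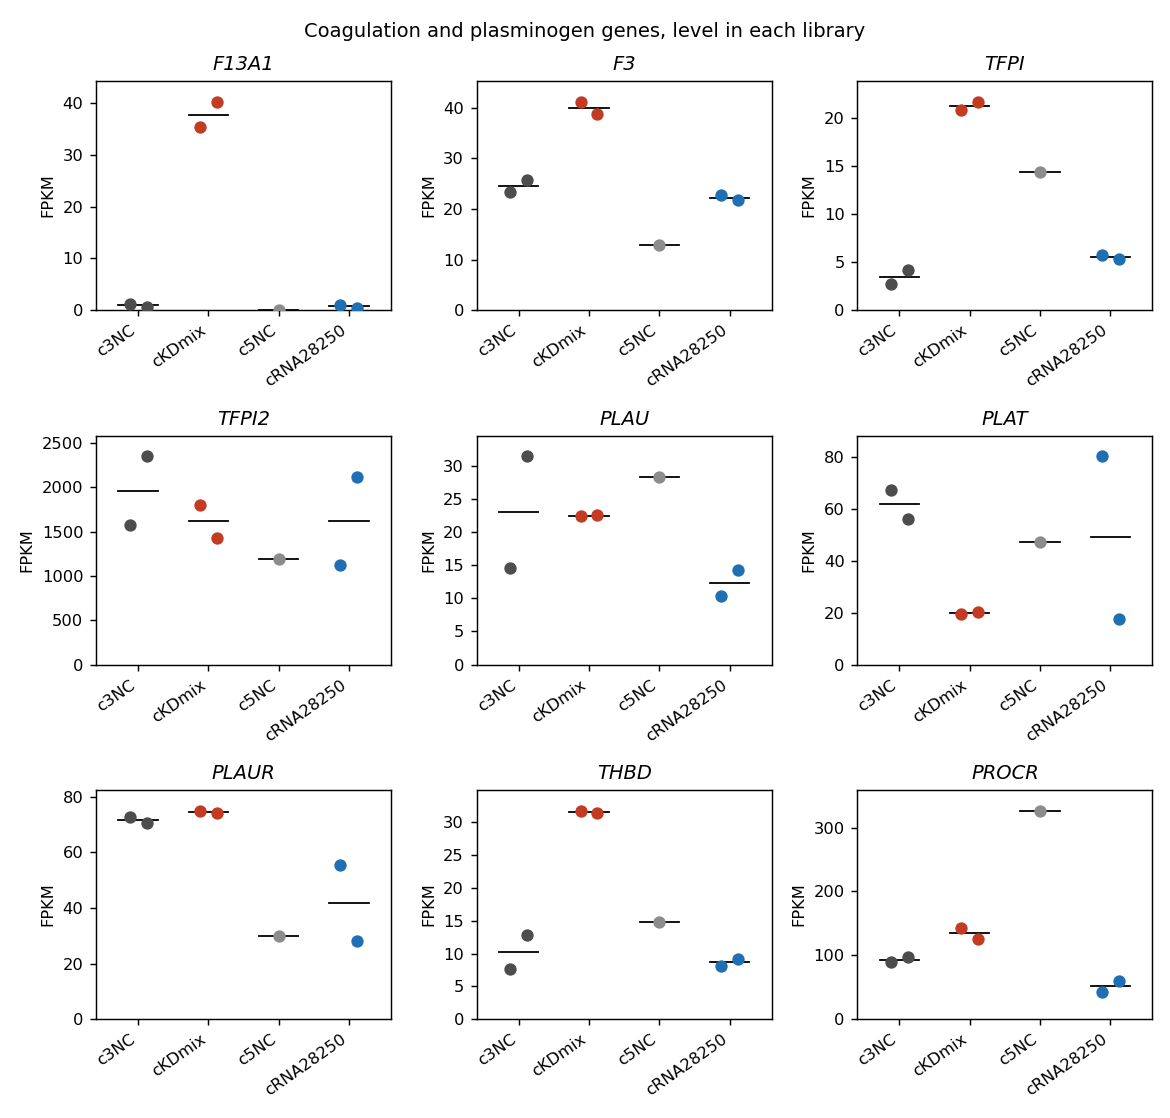
Level in FPKM (vertical axes, linear, from 0) of each of the 9 genes in each library, grouped by condition along the horizontal axes. Points are libraries and the bar is the group mean (c5NC has 1 library). F13A1 is above 35 FPKM only in the 2 cKDmix libraries, F3, TFPI and THBD are highest there too, and PROCR is highest in c5NC at 326 FPKM.

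F3, which encodes tissue factor, was higher in the knockdown. Its level was 41.14 and 38.69 FPKM in cKDmix, 23.26 and 25.72 FPKM in c3NC, 22.69 and 21.74 FPKM in cRNA28250 and 12.95 FPKM in c5NC. The cKDmix libraries lay above all others, c3NC lay just above cRNA28250, by less than 1 SD of c3NC at the nearest libraries, and c5NC lay lowest. The mean of cKDmix was 1.63 times that of c3NC, a log2 difference of 0.68 ± 0.17 (SE). In cRNA28250 the log2 difference from c5NC was 0.73 ± 0.21, and from c3NC it was −0.13.

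TFPI, the inhibitor of the tissue factor complex, was also higher in the knockdown. TFPI was at 20.89 and 21.69 FPKM in cKDmix, against 2.75 and 4.23 FPKM in c3NC. It was at 5.79 and 5.34 FPKM in cRNA28250 and at 14.36 FPKM in c5NC. The order was cKDmix, c5NC, cRNA28250 and c3NC, with no overlap between the groups. The mean in cKDmix was 6.10 times that in c3NC (log2 difference 2.33 ± 0.22, SE), and the mean in cRNA28250 was 0.387 times the c5NC value (−1.23 ± 0.26). Against c5NC the log2 difference of the knockdown was 0.54, smaller than the 1.55 of F3 against that control, whereas against c3NC TFPI had the larger difference. The direction in the overexpression turned with the control, since against c3NC the log2 difference was 0.57.

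TFPI2, a related Kunitz-type inhibitor that is secreted into the matrix and acts on plasmin and other serine proteases, was by far the most abundant of the 9 genes. Its c3NC libraries held 1571.61 and 2351.49 FPKM and its cKDmix libraries 1806.61 and 1425.89 FPKM, with 1127.80 and 2122.72 FPKM in cRNA28250 and 1189.36 FPKM in c5NC. These put it between rank 29 and rank 90 of all genes. Replicates of c3NC and of cRNA28250 lay far apart, and both cKDmix and cRNA28250 overlapped their control. The log2 difference was −0.26 ± 0.41 (SE) in the knockdown, turning to 0.16 with quantile normalization, and 0.38 ± 0.50 in the overexpression. TFPI2 exceeded TFPI by 571 and 556 times in the c3NC libraries and by 86.5 and 65.7 times in the cKDmix libraries.

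THBD, the thrombin receptor that starts protein C activation, was higher in the knockdown. It stood at 31.78 and 31.48 FPKM in cKDmix, at 7.59 and 12.77 FPKM in c3NC, at 8.12 and 9.24 FPKM in cRNA28250 and at 14.82 FPKM in c5NC. The knockdown libraries lay above all others, while cRNA28250 fell within the range of c3NC and below c5NC. The mean in cKDmix was 3.11 times that in c3NC, a log2 difference of 1.59 ± 0.25 (SE), and it was 1.04 against c5NC. In cRNA28250 the log2 difference from c5NC was −0.71 ± 0.30 and from c3NC −0.17.

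PROCR, which presents protein C to the thrombin and thrombomodulin complex, differed between the controls. It was at 326.25 FPKM in c5NC, followed by 142.11 and 126.20 FPKM in cKDmix, 89.33 and 96.74 FPKM in c3NC, and 43.07 and 59.38 FPKM in cRNA28250. No groups overlapped, and cRNA28250 was lowest. The mean in cRNA28250 was 0.157 times the c5NC value (log2 difference −2.67 ± 0.27, SE) and remained below c3NC (−0.87). In the knockdown PROCR was 1.44 times c3NC (0.52 ± 0.22), but against c5NC the log2 difference was −1.28. The log2 difference of c3NC from c5NC was itself −1.80 ± 0.27.

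THBD and PROCR are best known from endothelium, so endothelial markers are given beside them. Of 8 listed, 5 were in the table and none passed the filter, with a summed level of 0.90 and 1.03 FPKM in cKDmix, 0.09 and 0.13 FPKM in c3NC, 0.69 and 0.76 FPKM in cRNA28250 and 0.22 FPKM in c5NC. EMCN, at 0.56 FPKM in cKDmix replicate 1, was the highest single value, and TIE1, KDR and PECAM1 stayed at or below 0.05, 0.14 and 0.42 FPKM. The 5 markers in the table thus stayed at or below 0.56 FPKM in every library, while CDH5, ESAM and CLDN5 were not in the table. The part of endothelial cells in the levels of THBD and PROCR was not tested.

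PLAT, which encodes tissue plasminogen activator, was lower in the knockdown. It was at 19.39 and 20.39 FPKM in cKDmix, at 67.22 and 56.04 FPKM in c3NC, at 80.10 and 17.67 FPKM in cRNA28250 and at 47.34 FPKM in c5NC. The cKDmix libraries lay below all controls, and cRNA28250 held the highest and the lowest value of all, with replicate 2 at the level of the knockdown. The mean in cKDmix was 0.323 times that in c3NC, a log2 difference of −1.58 ± 0.57 (SE). That SE is pooled over all groups, so it carries the wide spread of the cRNA28250 libraries. In the overexpression the log2 difference was −0.31 ± 0.70, with −1.37 without cRNA28250 replicate 1 and 0.75 without replicate 2.

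PLAU, which encodes urokinase, did not follow PLAT. It was at 22.39 and 22.51 FPKM in cKDmix, at 14.56 and 31.39 FPKM in c3NC, at 10.39 and 14.30 FPKM in cRNA28250 and at 28.24 FPKM in c5NC. Both knockdown libraries lay between the c3NC libraries (log2 difference 0.06 ± 0.34, SE), and both cRNA28250 libraries lay below every other library. The margin was narrow: cRNA28250 replicate 2, at 14.30 FPKM, was just below c3NC replicate 1, at 14.56 FPKM, where the SD of c3NC was 11.9 FPKM. The log2 difference in the overexpression was −1.15 ± 0.41 from c5NC and −0.77 from c3NC.

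PLAUR, the urokinase receptor, was at 74.99 and 74.30 FPKM in cKDmix and at 72.85 and 70.66 FPKM in c3NC, a log2 difference of 0.06 ± 0.30 (SE) that became −0.29 with median ratio scaling. It was at 29.85 FPKM in c5NC and at 55.41 and 28.02 FPKM in cRNA28250. The c5NC library and cRNA28250 replicate 2 were low, and cRNA28250 replicate 1 lay between these and the c3NC and cKDmix libraries. The log2 difference in the overexpression was 0.39 ± 0.36 from c5NC and −0.85 from c3NC.

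**Figure D2:**
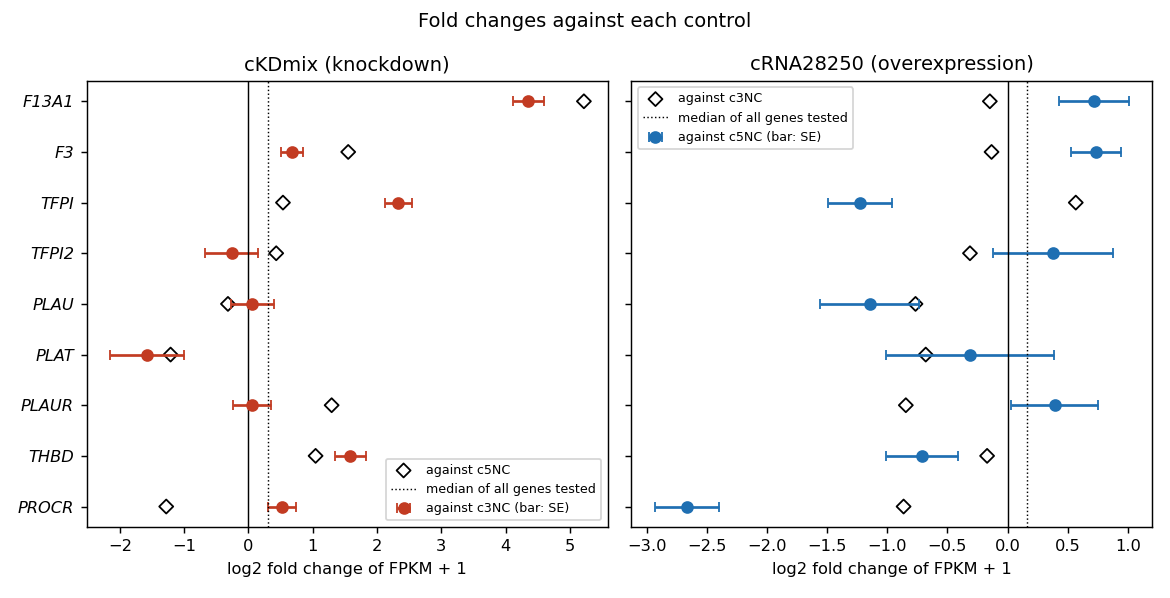
Log2 fold change of FPKM + 1 (horizontal axes) of each gene in cKDmix and in cRNA28250. Filled points with SE bars use the paired control of each, open diamonds the other control, and the dotted line marks the median of all genes tested (0.30 in the knockdown, 0.16 in the overexpression). F13A1, F3, TFPI, PLAUR and THBD lie to the right of 0 in the knockdown against either control, whereas F13A1, F3, TFPI, TFPI2 and PLAUR change side in the overexpression with the control.

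Across the set, the libraries of cKDmix and c3NC did not overlap for 7 of the 9 genes: F13A1, F3, TFPI, PLAUR, THBD and PROCR were higher and PLAT was lower, while TFPI2 and PLAU overlapped. Over all 12180 genes tested 78.0% did not overlap, 55.2% higher and 22.8% lower in cKDmix, so the 7 of 9 are near the background. In the fit over all genes, 4 of the 9 passed a Benjamini-Hochberg adjusted p under 0.05, all higher (F13A1, F3, TFPI and THBD), where 34.4% of all 12180 genes tested were called, 26.8% as higher. The median log2 difference of the 9 was 0.52, beside 0.30 for all genes. In the overexpression TFPI and PROCR passed as lower, where 7.62% of all genes were called, 2.55% as lower, and the median of the 9 was −0.31 beside 0.16. Between the controls, c3NC against c5NC, TFPI and PROCR passed as well, both lower in c3NC, where 5.8% of all genes were called, 3.07% as lower. Since the genes were chosen with these values known, nothing is read from these counts. The 3 comparisons also share libraries, c3NC and c5NC each entering 2 of them.

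The median of all genes shifted with the scaling, from 0.30 to −0.02 in the knockdown and from 0.16 to −0.0018 in the overexpression with quantile normalization. Relative to the median of all genes, the knockdown differences were 4.06 for F13A1, 2.03 for TFPI, 1.29 for THBD, 0.39 for F3, 0.22 for PROCR, −0.24 for PLAUR, −0.23 for PLAU, −0.56 for TFPI2 and −1.88 for PLAT. F13A1, TFPI, THBD, F3, PROCR and PLAT kept their sign with both quantile normalization and median ratio scaling, and TFPI2, PLAU and PLAUR each changed sign with at least one of them.

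Ratios between genes within a library do not depend on the scaling of that library; the pairs were chosen after the values were seen. TFPI per F3 was 0.508 and 0.561 in cKDmix against 0.118 and 0.164 in c3NC, 0.255 and 0.246 in cRNA28250 and 1.11 in c5NC. The inhibitor therefore made up a larger share relative to tissue factor in cKDmix than in c3NC, and the largest in c5NC. PLAT per PLAU was 0.866 and 0.906 in cKDmix and above 1 in every other library, from 1.24 in cRNA28250 replicate 2 to 7.71 in cRNA28250 replicate 1. Urokinase transcripts thus exceeded those of tissue plasminogen activator only in the knockdown libraries among the 7.

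The summed level of PLAU and PLAT was 41.78 and 42.90 FPKM in cKDmix, 81.78 and 87.43 FPKM in c3NC, 75.58 FPKM in c5NC and 90.49 and 31.97 FPKM in cRNA28250. The knockdown libraries lay below all 3 control libraries, and the cRNA28250 libraries held the highest and the lowest sum. TGM2, tissue transglutaminase, catalyses the same kind of cross-link as factor XIII. F13A1 per TGM2 was 0.571 and 0.574 in cKDmix and between 0.00012 and 0.00627 in the other 5 libraries.

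**Figure D3:**
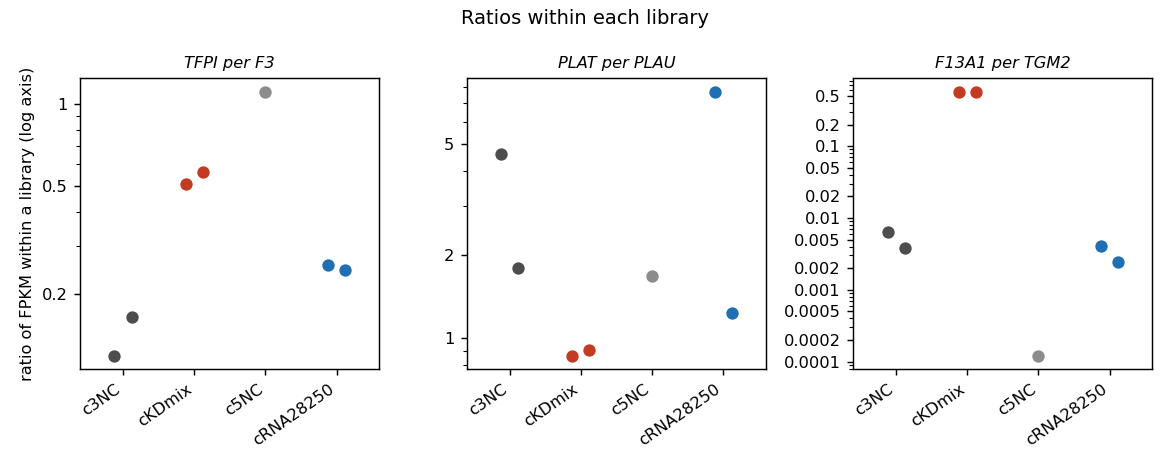
Ratios of FPKM within each library (vertical log axes) by condition, 1 point per library. The cKDmix libraries are the highest in F13A1 per TGM2 and the lowest in PLAT per PLAU, while c5NC is the highest in TFPI per F3.

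The rest of the pathway was read from a list of 54 other genes, of which 45 were in the table and 23 passed the filter. The list was broad: beside coagulation and fibrinolysis genes it held 7 transglutaminases and 7 plasminogen and protease receptors. In the knockdown 3 of the 23 rose (PROS1, TGM1 and MCFD2) and 5 fell (TGM2, KNG1, VKORC1, MRC2 and F2RL2). That is 13.04% rising and 21.74% falling, beside 26.8% and 7.56% of all genes tested, and the list median was 0.014 beside 0.30. With quantile normalization 3 rose and 3 fell, 13.04% each, beside 11.2% and 11.31% of all genes, with a median of 0.036 beside −0.015; the gap between the list and all genes therefore depended on the scaling. With median ratio scaling 2 rose and 5 fell, 8.7% and 21.74%, beside 15.46% and 14.66% of all genes. The list median was then −0.198 beside 0.0113, so that the list again lay below all genes. TGM1 passed the filter through the knockdown libraries alone, and over the 22 genes that reached 1 FPKM in at least 2 of the other libraries, a restriction chosen after the data were seen, 2 rose (9.09%, beside 25.32% of all such genes) and 5 fell (22.73%, beside 7.91%). The count of 8 was 0 without c3NC replicate 1 or without either cKDmix library, 3 without c3NC replicate 2 and 12 without either cRNA28250 library. Of the 8 genes, TGM2 alone was also called in the same direction against c5NC.

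Among anticoagulants, PROS1, which encodes the protein C cofactor protein S, rose from 22.98 ± 0.636 FPKM in c3NC to 54.5 ± 5.18 FPKM in cKDmix (SD, n = 2 each; log2 fold change 1.21 ± 0.18, limma, Benjamini-Hochberg adjusted p = 0.00514). In c5NC it was at 45.86 FPKM, and against that control the log2 difference of cKDmix was 0.24. SERPINE2, protease nexin 1, was not called, with 663.12 and 397.91 FPKM in c3NC against 347.32 and 324.98 FPKM in cKDmix.

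Among transglutaminases, TGM2 fell from 181 ± 3.23 to 65.96 ± 5.78 FPKM (SD, n = 2 each), opposite in direction to F13A1 (log2 fold change −1.44 ± 0.21, limma, Benjamini-Hochberg adjusted p = 0.00514). At 324.58 FPKM in c5NC and 245.13 and 191.65 FPKM in cRNA28250, TGM2 was lower in both cKDmix libraries than in all 5 others. TGM1, the membrane-bound enzyme known from keratinocytes, was at 1.40 and 1.44 FPKM in cKDmix and at or below 0.42 FPKM elsewhere, so that it had to differ to pass the filter. TGM3 was at 3.98 and 2.57 FPKM in cRNA28250, at 0.03 FPKM in c5NC and between 0.70 and 1.21 FPKM in the other 4 libraries.

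Of the clotting factor genes, most of which are made in liver, only FGG, the fibrinogen gamma chain, and KNG1, kininogen, passed the filter; the other genes of that list that passed act in factor maturation or transport. FGG was at 48.13 and 39.11 FPKM in cKDmix and at 21.99 and 24.84 FPKM in c3NC and was not called (limma, Benjamini-Hochberg adjusted p = 0.0778). In c5NC FGG was at 30.2 FPKM and in cRNA28250 at 22.51 and 48.63 FPKM, the last being its highest value. FGA and FGB stayed at or below 0.02 and 0.07 FPKM. KNG1 fell from 5.03 and 1.95 FPKM in c3NC to 0.85 and 0.66 FPKM in cKDmix (log2 fold change −1.27 ± 0.33, limma, Benjamini-Hochberg adjusted p = 0.0226), and was at 0.77 FPKM in c5NC. VKORC1, which recycles the vitamin K needed to make several clotting factors, fell from 163 ± 18.3 to 93.3 ± 12.4 FPKM (−0.80 ± 0.21, adjusted p = 0.0252 by limma). MCFD2, part of the cargo receptor for factors V and VIII, rose from 37.8 ± 6.60 to 63.02 ± 3.08 FPKM (0.73 ± 0.19, adjusted p = 0.0241 by limma) and lost its call with median ratio scaling (adjusted p = 0.17, and 0.00637 to 0.66 over the alternatives). Against c5NC the direction turned for VKORC1 (0.42) and MCFD2 (−0.15).

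Among receptors, F2RL2, the protease-activated receptor 3 that thrombin cleaves, fell from 413 ± 16.1 FPKM in c3NC to 196 ± 5.81 FPKM in cKDmix (SD, n = 2 each; log2 fold change −1.07 ± 0.30, limma, Benjamini-Hochberg adjusted p = 0.0298). MRC2, a collagen uptake receptor that associates with the urokinase receptor, fell from 139 ± 11.6 to 51.1 ± 3.22 FPKM (−1.42 ± 0.39, adjusted p = 0.0267 by limma). Both calls were lost with quantile normalization (adjusted p = 0.12 for F2RL2, and 0.000904 to 0.237 over the alternatives; 0.0545 for MRC2, and 0.000164 to 0.178). F2R, the main thrombin receptor, was not called, with 6.79 and 5.50 FPKM in c3NC against 3.14 and 4.31 FPKM in cKDmix. In cRNA28250 replicate 2, F2RL2 was at 191.37 and MRC2 at 42.37 FPKM, near the knockdown, whereas in replicate 1 they were at 348.75 and 108.30 FPKM.

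In the overexpression 2 of the 23 genes rose against c5NC, TGM3 (log2 fold change 2.03 ± 0.30, limma, Benjamini-Hochberg adjusted p = 0.00916) and VKORC1 (1.13 ± 0.26, adjusted p = 0.0426), and 0 fell; at an unadjusted p under 0.05 limma gave 4 higher and 1 lower. That is 8.7% of the list called, all higher, beside 7.62% of all genes called and 5.07% called higher, with a list median of 0.017 beside 0.16. VKORC1 was at 138.43 and 167.79 FPKM in cRNA28250, at 69.34 FPKM in c5NC and at 175.81 and 149.92 FPKM in c3NC, and against c3NC its log2 difference was −0.09. The count of 2 was 9 and 4 without cRNA28250 replicates 1 and 2, and 1 without any 1 library of c3NC or cKDmix. The knockdown effect differed from the overexpression effect for 4 of the 23 genes (VKORC1, TGM3, PROS1 and KNG1; limma's test of the difference, adjusted p from 0.0167 to 0.0462), or 17.4%, where 7.7% of all genes were called; without either cKDmix library or c3NC replicate 1 none of these 4 calls remained.

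**Figure D4:**
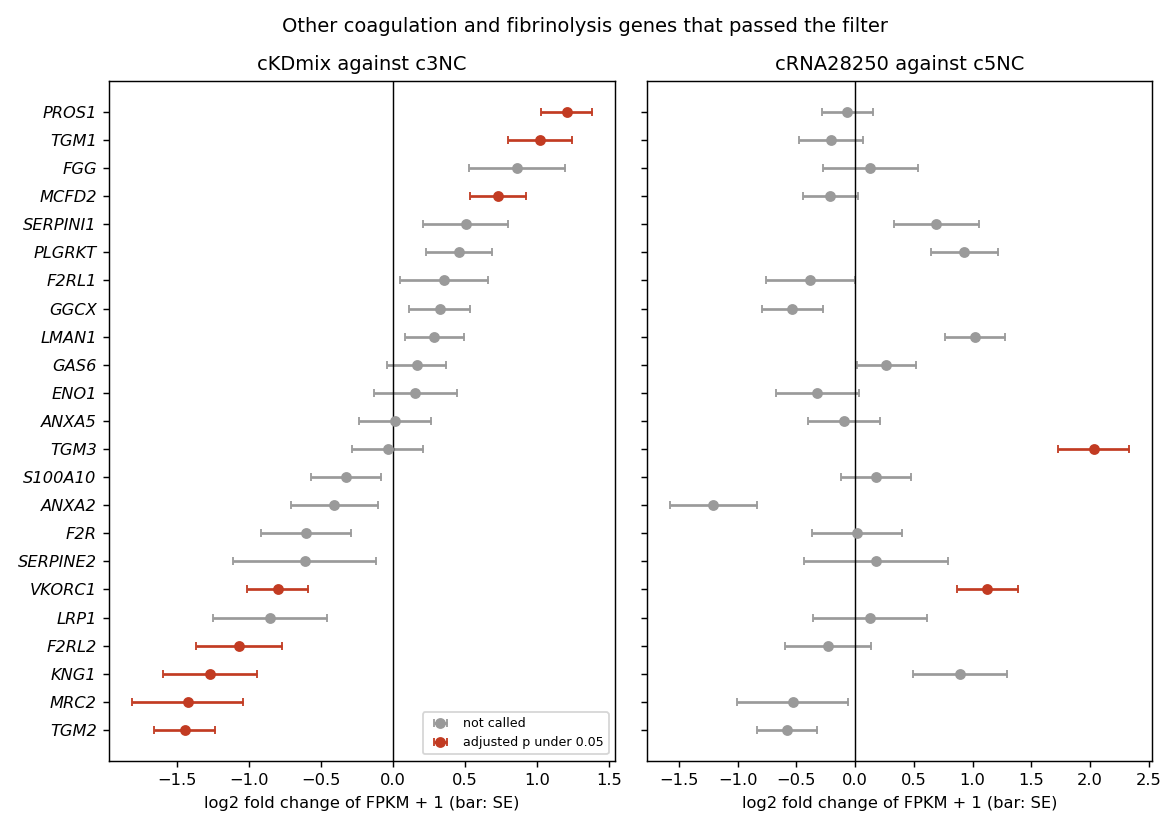
Log2 fold change of FPKM + 1 with SE bars (horizontal axes) of the 23 other listed genes that passed the filter, transglutaminases and receptors included. Panels show cKDmix against c3NC and cRNA28250 against c5NC, ordered by the knockdown. Red points passed an adjusted p under 0.05: 8 genes in the knockdown, from PROS1 at the top to TGM2 at the bottom, and 2 in the overexpression.

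The genes whose log2(FPKM + 1) over the 7 libraries followed F13A1 most closely were GNPDA1, which acts on glucosamine 6-phosphate, CDC42SE2, a CDC42 effector, PTBP3, an RNA-binding protein, GRIK1, a kainate receptor subunit, and PCDH17, a protocadherin. Their Pearson r with F13A1 was 0.996, 0.988, 0.988, 0.988 and 0.987. Of all genes tested, 161 others had an r of at least 0.95, and with 2 knockdown libraries far from the rest any gene that separates them gives a high r. GRIK1 resembled F13A1 in shape, at 3.83 and 4.48 FPKM in cKDmix and at or below 0.14 FPKM elsewhere. GNPDA1 rose by far less than F13A1, from 20.27 and 20.30 FPKM in c3NC to 33.85 and 32.49 FPKM in cKDmix. Within the set, r with F13A1 was 0.888 for F3, 0.866 for THBD, 0.725 for TFPI, 0.604 for PLAUR, 0.171 for PLAU, 0.15 for PROCR, 0.014 for TFPI2 and −0.604 for PLAT.

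**Figure D5:**
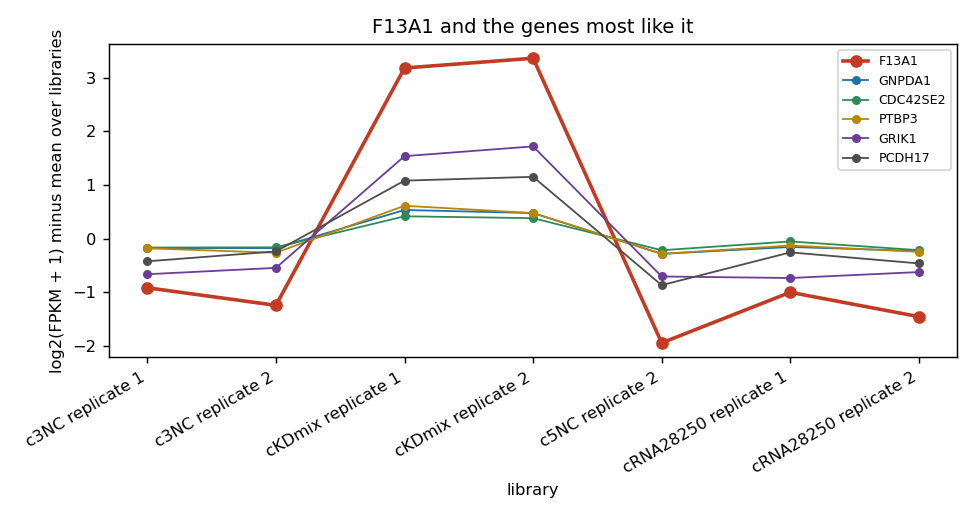
Log2(FPKM + 1) minus its mean over the 7 libraries (vertical axis) of F13A1 and the 5 genes with the highest Pearson r with it, by library; lines join the values of 1 gene and imply no order. All 6 are highest in the cKDmix libraries, and F13A1 spans the widest range.

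F13A1 is known from macrophages and from megakaryocytes and platelets, so markers of these cells are given beside it; in bulk RNA more cells of a type and more RNA per cell cannot be told apart. Of 13 macrophage markers 10 were in the table and 4 passed the filter, with a summed level of 64.95 and 66.78 FPKM in cKDmix, below the 128 to 227 FPKM of the other 5 libraries. Most of that sum was CD14, at 45.69 and 44.03 FPKM in cKDmix and 114.84 to 217.68 FPKM elsewhere. CD68 went the other way, at 19.36 and 19.32 FPKM in cKDmix and 5.86 to 10.67 FPKM elsewhere. ADGRE1 was at 0.26 and 0.27 FPKM in cKDmix, below the 2.39 and 1.54 FPKM of c3NC. It was at 2.14 and 0.91 FPKM in cRNA28250 and at 0.07 FPKM in c5NC. FCER1G was at 0.99 and 1.02 FPKM in cKDmix and between 0.13 and 1.26 FPKM elsewhere. CSF1R stayed at or below 0.22, PTPRC at or below 0.02, MRC1 at or below 0.01, AIF1 at or below 0.11 and C1QA at or below 0.14 FPKM in every library. Of 8 platelet markers 6 were in the table and 2 passed, with a summed level of 5.05 and 6.84 FPKM in cKDmix and 3.75 to 5.85 FPKM elsewhere: GP9 (1.76 to 3.18 FPKM) and GP1BB (0.54 to 3.55 FPKM, with 3.55 and 2.25 FPKM in cKDmix and 2.24 and 2.02 FPKM in cRNA28250). ITGA2B and PPBP reached at most 1.20 and 0.23 FPKM. CD68 was thus highest and CD14 lowest in the libraries in which F13A1 was high, and the part of these cell types in the level of F13A1 was not tested.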

How the data were processed

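RNA-seq was measured in 7 libraries, grouped by the sample titles. Per the file headers, the authors deposited 1 FPKM value for each gene in each library, with 2 decimals. Aligner, gene models, build, strandedness and any scaling beyond FPKM were not given in the sources used here. Too few genes (3 to 11 per library) sat at a single low step to recover relative depth. Of 17374 identifiers, 17007 took their symbol from RefSeq (goat assembly ARS1.2, for names and gene order alone), and 367 found none.

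The 12180 genes that reached 1 FPKM in 2 or more libraries were fitted as log2(FPKM + 1) with limma 3.58.1 in R 4.3.3, 1 mean per group, a variance trend, 3 residual and 4.66 prior degrees of freedom, and Benjamini-Hochberg adjustment over all genes. All groups shared an estimate of the spread of each gene, and the single c5NC library was assumed to vary like the other groups. The knockdown was cKDmix minus c3NC, the overexpression cRNA28250 minus c5NC; their difference and c3NC minus c5NC were also fitted. The pairing of controls follows the order of groups in the design text. On data simulated for the knockdown contrast over 12180 genes, the fit recovered 55% of 100 genes changed by 1 and 99% of 100 changed by 2 on the log2 scale. The changed genes were drawn from those with a mean log2(FPKM + 1) above 2, and 14 unchanged genes were called. The simulated spread was normal and the same in every group, so recovery of low genes or with unequal spread was not tested.

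The members, gene lists and tests were chosen with earlier results of these data known. Of the other pathway genes, SERPINE2, F2R and TGM2 were named in any case, with up to 6 called genes per direction by p; FGG, FGA and FGB were named after their values were seen. The 5 genes most like F13A1 were those with the highest Pearson r. Alternatives were a pseudocount of 0.1, no filter, quantile or median ratio scaling, only the groups compared, a replicate block, the other control, and each library left out. The circular RNA itself was not analysed here, and some listed genes are not reported here.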

Additional observations from a re-analysis of the deposited data

Results flagged for a closer look

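TFPI, THBD and PROCR were higher than their control in both knockdown libraries and lower than their control in both overexpression libraries. With c5NC as the control of the knockdown, the log2 difference was 0.54 for TFPI and 1.04 for THBD, and it turned to −1.28 for PROCR. The knockdown effect minus the overexpression effect was 3.56 for TFPI, 2.30 for THBD and 3.19 for PROCR on the log2 scale; these genes were chosen with their values known, so the difference was not tested. The lower value in the overexpression is set by 1 library, c5NC, in which PROCR was at 326.25 FPKM, TFPI at 14.36 FPKM and THBD at 14.82 FPKM; against c3NC, TFPI was higher in cRNA28250 (0.57), THBD was −0.17 and PROCR −0.87.

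Of the other pathway genes, 4 differed between the effects in limma's test of the difference. VKORC1 had a difference of −1.92 ± 0.34 (SE; Benjamini-Hochberg adjusted p = 0.0167 by limma; 0.00206 to 0.11 over the alternatives). TGM3 had a difference of −2.07 ± 0.39 (adjusted p = 0.0217 by limma; 0.00102 to 0.114). PROS1 had a difference of 1.27 ± 0.28 (adjusted p = 0.0348 by limma; 0.00722 to 0.167). KNG1 had a difference of −2.16 ± 0.52 (adjusted p = 0.0462 by limma; 0.011 to 0.207). Each of these rests on the same c5NC library, and leaving out either cKDmix library or c3NC replicate 1 ended all 4 calls, and leaving out c3NC replicate 2 ended those of VKORC1, TGM3 and PROS1.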

How the results depend on the processing

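In the knockdown 4191 genes were called; quantile normalization gave 2742, only the groups compared 6390, c5NC as the control 2655, and single libraries left out 45 (cKDmix replicate 2) to 6394 (cRNA28250 replicate 2). In the overexpression 928 were called; only the groups compared gave 231, c3NC as the control 525, and libraries left out 308 (either cKDmix library) to 2904 (cRNA28250 replicate 1). The 938 calls of the difference between effects ranged from 93 (cKDmix replicate 2) to 3430 (cRNA28250 replicate 2) with a library left out, and the 707 between controls from 192 (c3NC replicate 1) to 1879 (either cRNA28250 library) and were 1325 with only the groups compared.

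Of the pathway genes, 8 were called in the knockdown, with 5 called without the filter or against c5NC, 12 with only the groups compared, and 0 to 12 with a library left out; 7 remained among genes that met the filter outside cKDmix, an alternative chosen after seeing the data. In the overexpression 2 were called, with 1 called without the filter or with median ratio scaling, 0 with only the groups compared, and 1 to 9 with a library left out. Of the named genes called in the main fit, some reversed against the other control. These were TFPI in the overexpression (0.57), VKORC1 in both comparisons (0.42 in the knockdown, −0.091 in the overexpression) and MCFD2 in the knockdown (−0.15). Members not called there also changed sign, F13A1, F3, TFPI2 and PLAUR in the overexpression and TFPI2, PLAU and PROCR in the knockdown. The shares of higher calls in the knockdown were 78.0% unscaled, 49.7% with quantile normalization and 51.3% with median ratio scaling, and in the overexpression 66.6%, 54.2% and 53.5%. The cause of these changes was not tested.

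Same-numbered replicates were not treated as pairs in the main fit. The replicate differences correlated at 0.111 between c3NC and cKDmix, 0.283 between c3NC and cRNA28250 and −0.152 between cKDmix and cRNA28250. With a single difference per group, these values cannot tell whether same-numbered replicates were paired. With the replicate block 4084 genes were called in the knockdown, 672 in the overexpression, 615 for the difference and 443 between controls, with 8 and 1 pathway genes in the knockdown and overexpression. Without c5NC no overexpression value could be had.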

Other observations

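In the RefSeq table of assembly ARS1.2 no gene overlapped any of the 9 members. The coding gene next to F13A1 on one side, NRN1, a small neuronal surface protein, was at 12.94 and 10.07 FPKM in cKDmix, 2.37 and 2.26 FPKM in c3NC, 5.35 and 4.53 FPKM in cRNA28250 and 0.99 FPKM in c5NC. NRN1 was highest in the libraries in which F13A1 was highest. Of all 12180 genes tested, 55.2% were higher in both cKDmix libraries than in both c3NC libraries. LOC108633505, the coding gene on the other side, was at 268.54 and 205.40 FPKM in cKDmix, 225.81 and 243.57 FPKM in c3NC, 158.60 and 133.24 FPKM in cRNA28250 and 174.66 FPKM in c5NC, so that cKDmix and c3NC overlapped. GULP1, next to TFPI and an adaptor of engulfment, was at 11.58 and 11.51 FPKM in cKDmix and between 3.16 and 9.35 FPKM in the other 5 libraries, while CALCRL on the other side of TFPI was at 7.86 and 8.12 FPKM in cKDmix and between 4.02 and 8.84 FPKM elsewhere. CD93 and FOXA2, on either side of THBD, stayed at or below 0.02 and 0.07 FPKM. These neighbours were looked up after the values of the members were seen, and those of the other members are not reported here.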
